A study of Mus musculus with 56 samples.

Results

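The data described here are the genome-wide lists of p300 peaks from mouse bone marrow-derived macrophages (BMDMs) that were left untreated or exposed to IL-4 for 1 hr. All 4 samples immunoprecipitated with the p300 antibody sc-585 were used, 2 untreated (replicates 1 and 2) and 2 IL-4-treated (replicates 1 and 2), out of 56 samples in the whole series. Bone marrow cells of wild-type (WT) C57BL/6 mice aged 8 to 12 weeks were grown for 6 days with L929 supernatant as the source of M-CSF, so both groups share this differentiation, and IL-4 was given at 20 ng/ml. Cells were cross-linked with DSG and formaldehyde before ChIP, and the authors called peaks in each sample separately. The legends of the paper describe the p300 data as independent biological replicates, and whether each was a separate animal was not stated, so the p-values measure only the spread between these samples. The comparison asks where in the genome p300 binding differed after 1 hr of IL-4. The lists hold 44787, 66710, 67026, and 69360 peaks, and joining peaks that overlapped by at least 1 bp gave 81230 regions. A region is named here by the gene whose transcription start site (TSS) is nearest in the deposited annotation, which does not make that gene its target.

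p300 (gene Ep300) is a histone acetyltransferase that is brought to enhancers and promoters by DNA-bound transcription factors, where it acetylates histones, among them H3K27. It does not read a DNA sequence of its own, so the motifs in a p300 region belong to the factors that can bind there. In macrophages these are mainly PU.1, C/EBP, AP-1, and RUNX factors, while IL-4 acts through its receptor and JAK kinases to phosphorylate STAT6, which enters the nucleus and binds a palindrome of TTC and GAA.

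Sequences of 8 regions are given first. They were picked as examples that hold the motif marked in each, so they do not show how often a motif occurs. The genome build is mm10 (GRCm38, RefSeq), and all sequences are of the plus strand. In the first 5, where p300 was higher after IL-4, capitals mark a STAT motif (TTCNNNNGAA or TTCNNNGAA, searched on both strands). The first is an intergenic region nearest to Abra, at chr15:42219473-42219672. The second is an intergenic region downstream of Cish, a gene for an inhibitor of cytokine signalling, at chr9:107307927-107308126. The third is in intron 1 of Osbpl3, a gene for an oxysterol-binding protein, at chr6:50452891-50453090. The fourth is the promoter of Pdcd1lg2, a gene for a PD-1 ligand, at chr19:29410719-29410918, which ends with the last base before the TSS. The fifth is an intergenic region upstream of Edn1, a gene for endothelin, at chr13:42292161-42292360.
Abra: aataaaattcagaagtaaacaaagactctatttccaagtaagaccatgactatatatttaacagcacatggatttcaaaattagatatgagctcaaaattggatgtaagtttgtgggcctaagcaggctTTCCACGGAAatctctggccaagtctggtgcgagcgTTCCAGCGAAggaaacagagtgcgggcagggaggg
Cish: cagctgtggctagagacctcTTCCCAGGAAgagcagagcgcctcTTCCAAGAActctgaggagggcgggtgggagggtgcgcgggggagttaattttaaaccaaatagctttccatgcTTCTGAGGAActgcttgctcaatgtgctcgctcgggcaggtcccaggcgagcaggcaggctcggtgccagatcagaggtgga
Osbpl3: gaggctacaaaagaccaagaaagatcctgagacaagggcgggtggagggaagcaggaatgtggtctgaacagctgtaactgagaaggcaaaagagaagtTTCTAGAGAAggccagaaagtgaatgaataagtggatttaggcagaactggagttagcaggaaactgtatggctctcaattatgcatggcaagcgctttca
Pdcd1lg2: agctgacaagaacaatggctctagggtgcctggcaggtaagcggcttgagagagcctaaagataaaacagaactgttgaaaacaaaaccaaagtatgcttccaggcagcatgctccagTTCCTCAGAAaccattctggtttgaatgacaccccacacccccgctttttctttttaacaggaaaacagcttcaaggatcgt
Edn1: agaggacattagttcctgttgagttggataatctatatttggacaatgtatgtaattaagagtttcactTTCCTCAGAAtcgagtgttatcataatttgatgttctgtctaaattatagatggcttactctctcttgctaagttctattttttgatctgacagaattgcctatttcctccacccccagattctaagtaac

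In the other 3, where p300 was lower after IL-4, no STAT motif was found in the 200 bases, and capitals mark AP-1 (TGANTCA) in the Ms4a1 and Pdpn regions and C/EBP (TTGCNNAA) in the Vsig4 region, where the first match is on the minus strand and reads as its reverse complement. The Ms4a1 region is in intron 1 of that gene, which encodes CD20, at chr19:11261569-11261768. The Pdpn region, upstream of the gene for the membrane protein podoplanin, is intergenic at chr4:143305092-143305291. The Vsig4 region lies at chrX:96314277-96314476 in an intron of Hsf3, and its nearest TSS is that of Vsig4, which encodes a complement receptor of macrophages.
Ms4a1: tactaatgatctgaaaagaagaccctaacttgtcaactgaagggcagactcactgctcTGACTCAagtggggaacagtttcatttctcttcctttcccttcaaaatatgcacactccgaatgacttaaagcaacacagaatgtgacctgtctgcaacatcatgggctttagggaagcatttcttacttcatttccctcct
Pdpn: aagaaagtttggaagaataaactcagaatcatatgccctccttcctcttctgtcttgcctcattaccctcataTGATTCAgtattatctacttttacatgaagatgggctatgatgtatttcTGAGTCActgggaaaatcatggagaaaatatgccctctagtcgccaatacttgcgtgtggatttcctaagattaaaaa
Vsig4: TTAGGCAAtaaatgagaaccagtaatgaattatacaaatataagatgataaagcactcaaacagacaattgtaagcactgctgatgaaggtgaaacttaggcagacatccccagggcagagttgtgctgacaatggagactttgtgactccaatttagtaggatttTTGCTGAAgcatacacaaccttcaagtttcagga

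Untreated replicate 1 stood apart from the other 3 samples. The deposited peak score corresponds to −log10 of the caller's p- or q-value, a quantity that rises with the number of reads as well as with enrichment, and no read counts were used here, so the depth is unknown. The median score was 11.04 in untreated replicate 1 and 18.91 in untreated replicate 2, against 19.23 and 18.18 in the IL-4 replicates. A score of at least 100 was reached by 570 peaks of untreated replicate 1 and by 6802, 6975, and 7217 peaks of the others. Its peaks lay mostly where the longer list of untreated replicate 2 had them too, with 97.0% of its regions shared. Over the 40457 regions with a peak in all 4 samples, Pearson's r of the log2 scores was 0.901 between the untreated replicates and 0.953 between the IL-4 replicates, and it ranged from 0.768 to 0.796 between samples of different treatment (a description across regions, which are not independent replicates). For the comparison, scores were centred on each sample's median over those regions, and the main results are given with and without untreated replicate 1.

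**Figure D1:**
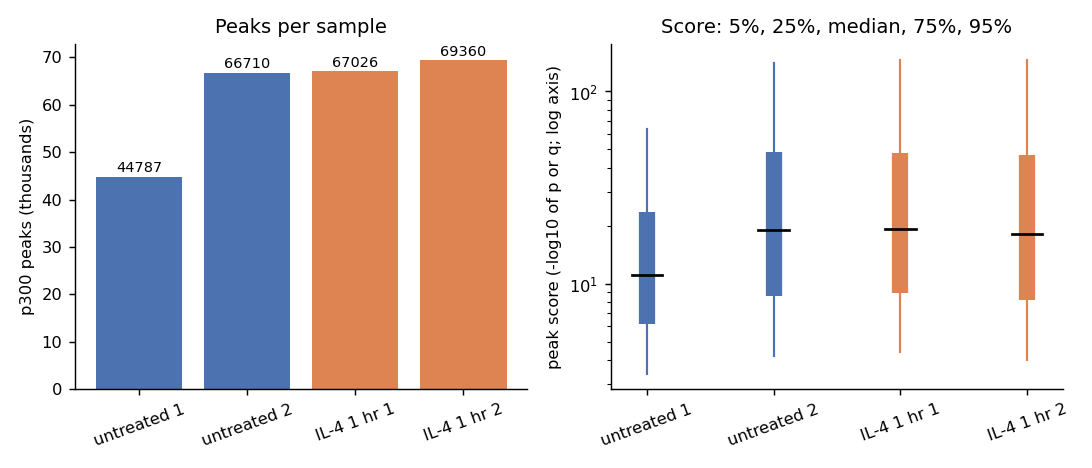
Left, number of p300 peaks per sample (axis in units of 1000 peaks). Right, peak scores (−log10 scale of significance, log axis) with the median as a black line, the 25% to 75% range as a thick bar, and the 5% to 95% range as a thin line. Untreated replicate 1 (44787 peaks, median 11.04) lies below the other 3 samples, whose medians run from 18.18 to 19.23.

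After 1 hr of IL-4 p300 differed at many regions in both directions, and the gains were larger than the losses. Of the 67229 regions found in 2 or more samples, which were the ones tested, 9124 rose (13.6% of those tested) and 5002 fell (7.44%) in limma on the centred log2 scores at a Benjamini-Hochberg adjusted p of at most 0.05. The median log2 change was 2.28 over the regions that rose and -1.13 over those that fell, beside 0.11 over all regions tested. A change of at least 2 log2 units was seen at 5155 of the regions that rose and at 987 of those that fell. The replicates of the groups did not overlap at 9114 and 4999 of the called regions. With 2 against 2 samples a call nearly requires this, and the share over all regions was not counted, so it adds no support. These calls needed the centring. Without it and with untreated replicate 1 included, limma called 0 regions (10618 higher and 687 lower at an unadjusted p of at most 0.05), and without both the centring and that sample it called 9439 higher and 5501 lower.

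Part of the gains were regions with no peak before IL-4. Both IL-4 replicates and neither untreated replicate had a peak at 7394 regions, of which 2799 were called, and the reverse pattern was found at 690 regions, of which 447 were called. A sample without a peak was given the lowest score of the 4 lists, 1.34, so the size of these changes, and the agreement of the samples without a peak, are set by that value. Such regions passed the filter only through the group with the peaks, so their calls are a description and no p is given for them. A further 1816 gains, with peaks in both IL-4 replicates and untreated replicate 2, were given that value in untreated replicate 1. In the main fit, 4487 of the 9124 gains and 4244 of the 5002 losses had a peak in all 4 samples. The value given to samples without a peak therefore also enters the medians of 2.28 and -1.13. Among the 40457 regions with a peak in every sample, fitted alone, 4672 rose (11.5%) and 4874 fell (12.0%), so 48.9% of the calls were gains there, against 64.6% over all regions tested. Quantile normalization gave 7723 and 8826 regions (46.7% gains), and the split between gains and losses therefore depended on the scaling and on the regions admitted. Without untreated replicate 1, 10393 regions rose (15.7% of 66380) and 4534 fell (6.83%), with the lone untreated sample assumed to vary like the IL-4 pair. Of the regions called with all 4 samples, 88.7% of those that rose and 64.6% of those that fell were called the same way without that sample, and none was called the opposite way. The 447 regions with peaks in the untreated samples only could not be tested without it, because 1 list then holds the peak. Other single samples moved the counts as well: 14334 regions rose and 8473 fell without untreated replicate 2, 3201 and 2956 without IL-4 replicate 1, and 3381 and 3498 without IL-4 replicate 2.

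**Figure D2:**
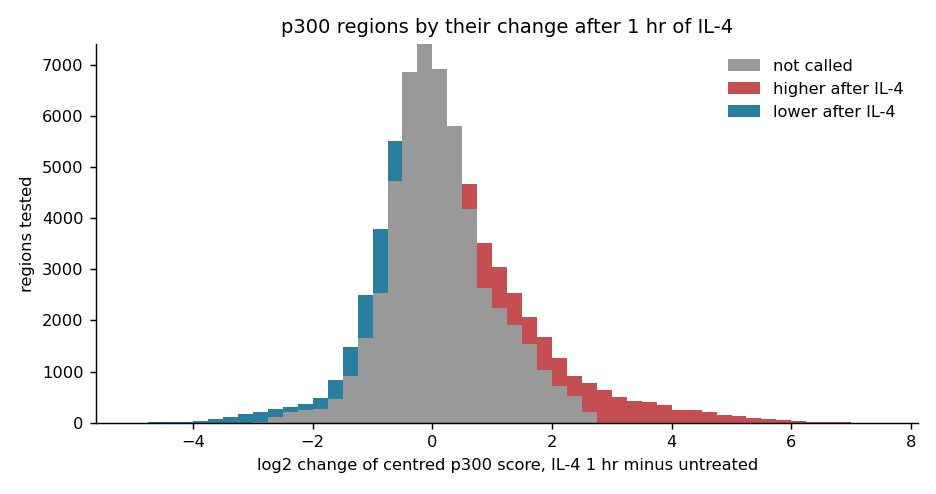
Number of p300 regions by the log2 change of the centred score (IL-4 1 hr minus untreated), stacked by call at an adjusted p of at most 0.05. The called gains (red, 9124 regions) reach further from 0 than the called losses (blue, 5002 regions), with medians of 2.28 and -1.13.

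The strongest gains were regions that had no p300 peak in the untreated samples and some of the highest scores after IL-4. The intergenic region nearest to Abra, a gene for a muscle protein that binds actin, had no peak in either untreated sample and scores of 329 and 332 in the IL-4 replicates. The region near Prep, a gene for a peptidase, had no untreated peak and IL-4 scores of 250.1 and 266. The Cish region had no untreated peak and scores of 211 and 212 after IL-4. All 3 were absent in one group and far above the median score of the other (19.23 and 18.18). The other 9 regions of this rank were nearest to Tex2, Lace1, Lpp, Cry1, Olfm1, Spry1, Mpp6, Stard3nl, and Zfp608. Cry1 encodes a repressor of the circadian clock and Spry1 an inhibitor of growth factor signalling. The scores of these 12 regions after IL-4 ran from 210.4 (Zfp608) to 332 (Abra). A STAT motif lay in the central 200 bp of 11 of the 12, with Zfp608 as the exception, and all 12 were also called without untreated replicate 1.

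Among regions that carried a p300 peak in every sample, gains could be measured without the floor. The Osbpl3 region had scores of 5.83 and 4.09 before and 223 and 236 after IL-4, a log2 change of 4.88 ± 0.37 (SE, limma adjusted p = 9.33e-12). An intergenic region nearest to Igf1, a gene for a growth factor that macrophages secrete, had untreated scores of 3.3 and 13.02 and IL-4 scores of 269 and 285. The region in intron 3 of Atg16l1, a gene of autophagy, had untreated scores of 4.27 and 12.2 and IL-4 scores of 277 and 274. The untreated replicates differed from each other in all 3 regions, but by far less than either differed from the IL-4 samples. The region near Rgs1, which encodes a regulator of G protein signalling, had untreated scores of 5.33 and 13.7 and IL-4 scores of 299 and 277. When peaks were cut to 100 bp on either side of their centre before joining, the region matched to it had a log2 change of -3.34, so its value belongs to the joined region only. The remaining regions of this rank, nearest to Spint2, Mpp6, Ppp2r3a, and Akirin2, had untreated scores from 3.32 to 15.2 and IL-4 scores from 158 to 262. Log2 changes of these 8 regions lay between 4.35 and 4.88, and 6 of the 8 held a STAT motif, the Igf1 and Atg16l1 regions being without one.

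The deepest losses among regions with a peak in every sample were smaller on the log2 scale than these gains. The Ms4a1 region had scores of 33.5 and 83.2 before and 8.04 and 9.60 after IL-4, a log2 change of -3.26 ± 0.33 (limma adjusted p = 3.12e-09). The Pdpn region had untreated scores of 16.9 and 46.3 and IL-4 scores of 6.63 and 5.91. The Vsig4 region had untreated scores of 9.85 and 39.6 and IL-4 scores of 4.39 and 3.81. In each of them both untreated scores lay above both IL-4 scores before centring. The rule that picked these regions required such a separation of the centred scores, so it adds no support. The other 5 regions of this rank were nearest to Papss1, Dok1, Nr3c1, Sytl3, and Mir687, of which Nr3c1 encodes the glucocorticoid receptor and Dok1 an adaptor that restrains tyrosine kinase signalling. The 8 changes ran from -3.26 to -2.75, all 8 were also called without untreated replicate 1, and 1 of the 8 (Nr3c1) held a STAT motif. AP-1 was found in 2 of the 8 and C/EBP in 3, beside 17.5% and 13.9% of all regions tested.

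Losses with no peak in 1 or both IL-4 samples were nearest to Slc23a2, Itga6, Lrrc17, Plekhm3, F13a1, Tbl1xr1, Btg1, Arid3a, Mef2a, Sh2d4a, and Ptafr. Their untreated scores were from 9.28 to 29.9 in replicate 1 and from 29.7 to 65.9 in replicate 2. Ptafr encodes the receptor of platelet-activating factor, and its region was the only one of these 11 with an IL-4 peak (8.13 in replicate 2, none in replicate 1). It was also the only one that could be tested without untreated replicate 1 (log2 change of -4.19, from a fit with 1 untreated sample). The other 10 rest on the presence of a peak in untreated replicate 1. A STAT motif lay in the Lrrc17 and Tbl1xr1 regions. AP-1 was found at Lrrc17 and Ptafr, and C/EBP at Slc23a2, F13a1, and Mef2a.

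**Figure D3:**
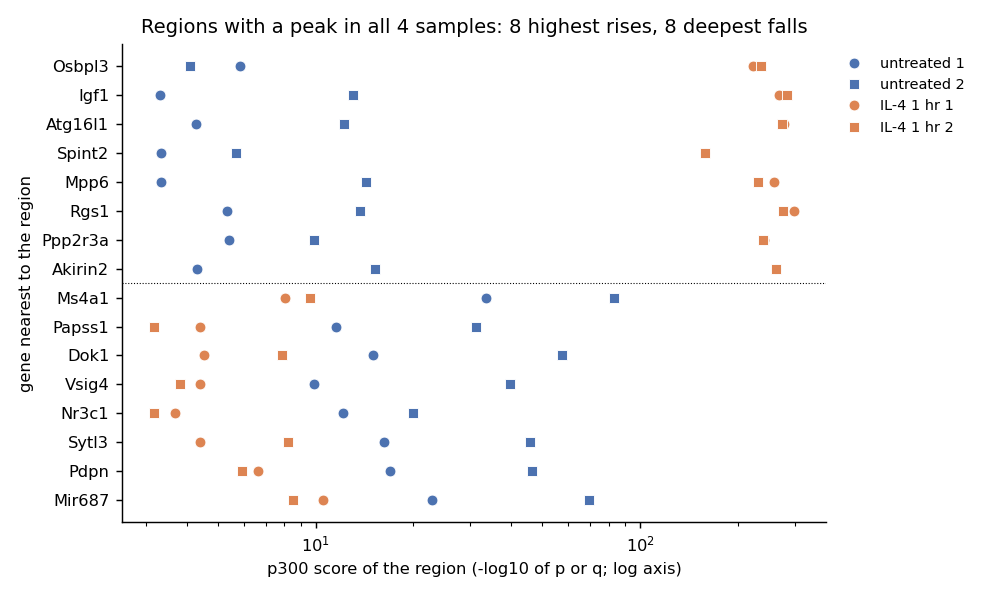
p300 score of each region in the 4 samples (log axis), for the 8 regions with the largest gains and the 8 with the largest losses among regions with a peak in all 4 samples, 1 region per gene. Circles are replicate 1 and squares replicate 2. Gains end at scores of 158 to 299 in both IL-4 replicates, and losses end at 10.5 or less.

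Promoters took part less than distal regions. Of the 7567 regions annotated as promoter-TSS, 440 rose (5.81%) and 110 fell (1.45%), against 13.6% and 7.44% over all regions. Introns (14.4% rose and 7.72% fell) and intergenic regions (14.9% and 9.15%) held 91.1% of the regions that rose and 95.1% of those that fell. Calls increased with distance from a TSS, from 6.19% up and 1.57% down within 1000 bp to 15.6% up and 9.71% down in the most distant class. The difference between promoters and the rest was also present without untreated replicate 1 (6.8% and 1.3% of promoters) and among regions with a peak in all 4 samples (6.40% and 2.48%). Regions in LTR, LINE, and SINE repeats rose at 14.3%, 14.8%, and 14.5%, near the share over all regions, and CpG islands at 4.46%.

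The make-up of the peak lists as a whole differed little. Promoters made up 11.3% and 11.4% of the untreated lists and 11.7% and 11.5% of the IL-4 lists. The means differed by 0.25 percentage points and the samples of the groups did not overlap. The exact permutation test (two-sided, p = 0.33) could not have gone lower with 2 against 2 samples and does not bear on whether they differ. For scores of at least 5 the difference was 1.03 points. Introns were 44.1% to 44.7% and intergenic peaks 39.3% to 40.4% in the 4 samples, and the ranges of the groups overlapped for both.

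Sequence separated the gains from the losses. A STAT motif lay in the central 200 bp of 54.1% of the regions that rose, 4.82% of those that fell, and 12.5% of those not called, beside 17.6% of all regions tested. The form with 4 bases between TTC and GAA, which STAT6 is known to prefer, was found in 38.5% of the gains and 1.42% of the losses (10.2% of all). The form with 3 bases was found in 20.1% and 3.46% (8.37% of all). Read the other way, 51.3% of the regions with the 4-base form were called higher and 1.04% lower. Without untreated replicate 1, STAT motifs were in 54.6% of the regions that rose and 5.23% of those that fell (17.9% of those tested), and among regions with a peak in all 4 samples in 43.3% and 5.25% (13.1%).

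The share of regions with a STAT motif followed the size of the change and the number of matches. With the regions ranked by log2 change into 10 groups of about equal size, it climbed from 5.12% in the lowest group to 63.1% in the highest. Regions with no STAT motif had a median log2 change of -0.02, those with 1 of 1.22, those with 2 of 2.46, and those with 3 or more of 2.81. Of the 1245 regions with 2 matches, 63.5% rose and 0.562% fell. Matches were concentrated at the centre of the gains, at 4.35 and 4.24 per kb in the 50 bp on either side, and thinned to 0.967 and 0.949 per kb at 150 to 200 bp. In the losses they were rarer at the centre (0.192 and 0.204 per kb) than at that distance (0.536 and 0.576 per kb), whereas regions not called had 0.746 and 0.748 per kb at the centre. The median GC content of the 200 bp was 45.0% in the gains, 45.5% in the losses, and 47.5% in regions not called.

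The losses carried other motifs. AP-1 (TGANTCA) was in 33.3% of the regions that fell, 15.9% of those that rose, and 17.5% of all tested, and C/EBP (TTGCNNAA) in 25.5%, 13.8%, and 13.9%. Without untreated replicate 1 the losses held AP-1 in 33.5% and C/EBP in 25.3%. Of the 1630 regions with both an AP-1 and a C/EBP match, 21.0% fell, against 5.03% of the regions with neither. Where STAT and AP-1 were both present, 41.4% rose and 3.65% fell, against 41.9% and 1.70% of the regions with STAT and no AP-1. AP-1 without STAT went with 6.13% up and 16.4% down, and neither with 7.85% and 6.93%, so a higher share of losses went with AP-1 whether or not STAT was present. The PU.1 motif (GAGGAAGT) differed little, with 9.79% of gains, 8.82% of losses, and 10.7% of all regions. IRF (GAAANNGAAA) was in 6.54% of gains and 3.02% of losses, RUNX (TGTGGTT) in 9.64% and 10.1%, NF-kB (GGGANNTTCC) in 1.92% and 1.42%, and KLF/Sp (GGGCGG) in 5.01% and 2.94%, the last beside 9.44% of all regions. All motifs were searched on both strands, matches of different motifs may share bases, and a match does not show that a factor was bound.

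The same could be seen in each sample without any call. Among the 5000 regions with the highest p300 score of a sample, a STAT motif was present in 14.3% and 14.5% before IL-4 and in 33.0% and 32.7% after it. AP-1 was present in 24.1% and 24.9% of the untreated and 20.1% and 20.3% of the IL-4 top regions, and C/EBP in 19.8% and 19.6% against 17.2% in both. The groups did not overlap for any of these motifs, and the untreated replicates differed by less than the groups did although their lists differ in length. At promoters, the 300 bases from 250 before to 50 after the TSS (RefSeq) held a STAT motif in 14.6% of all 32851 promoters, in 33.1% of the 366 that overlapped a promoter region that rose, and in 5.95% of the 84 that overlapped one that fell.

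**Figure D4:**
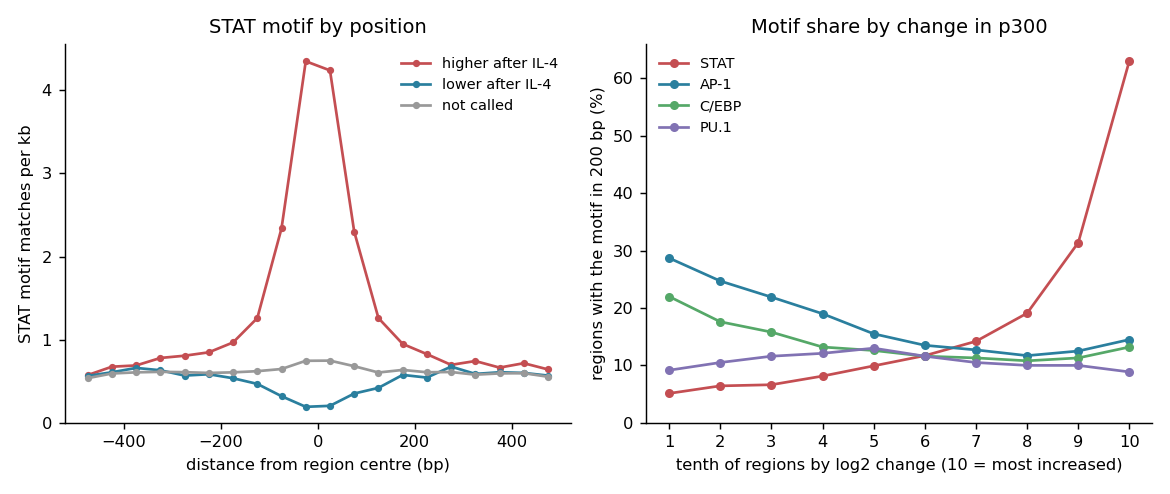
Left, STAT motif matches per kb by distance from the region centre (50 bp bins) for regions higher, lower, and not called. Right, percentage of regions with a STAT, AP-1, C/EBP, or PU.1 motif in the central 200 bp, in 10 groups of about equal size of the regions ranked by log2 change. The STAT share climbs from 5.12% to 63.1%, AP-1 falls from 28.7% to 14.5%, and PU.1 ends at 8.86%.

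At the level of genes, the scores of all peaks annotated to a gene were summed, which gave 15708 genes found in 2 or more samples. Of these, 1666 rose (10.6%) and 1471 fell (9.36%) in limma at an adjusted p of at most 0.05, and without untreated replicate 1 2741 rose (17.6% of 15597) and 2402 fell (15.4%). All 1666 genes that rose and 96.1% of those that fell were called the same way without it. With no variance trend limma called 0 genes (2229 higher and 1824 lower at an unadjusted p of at most 0.05). The median log2 change was 1.17 in the genes that rose and -0.74 in those that fell. Gains and losses often sat beside the same gene, since 1529 of 15551 genes had at least 1 region called in each direction.

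Of 28 genes that mark alternative activation, 16 rose (57.1%, beside 10.6% of all genes), none fell, and 12 were not called. Their median log2 change was 0.60 (-0.02 over all genes). Leaving out a sample gave 19 higher without untreated replicate 1, 20 higher and 3 lower without untreated replicate 2, and 9 and 11 of 27 higher without IL-4 replicates 1 and 2. Slc7a2, a transporter of arginine, had summed scores of 11.1 and 51.5 untreated and 396 and 426 after IL-4, a log2 change of 3.25 ± 0.20 (limma adjusted p = 0.000158). Its promoter region had no peak in untreated replicate 1, a score of 5.68 in replicate 2, and scores of 173 and 172 after IL-4. Mgl2, a lectin of alternatively activated macrophages, had 71.2 and 219 untreated and 705 and 613.5 after IL-4. Both genes had all IL-4 values above both untreated values, which on the centred scale held at all 1666 genes called higher. Il4i1, an amino acid oxidase induced by IL-4, had 27.45 and 112 untreated and 330.3 and 314 after IL-4. Batf3 and Irf4, both transcription factors, rose by 0.95 ± 0.11 and 0.93 ± 0.12 on the log2 scale. Pdcd1lg2 rose by 0.99 ± 0.13, and the score of its promoter region went from no peak and 8.53 in the untreated replicates to 244 and 230.0 after IL-4.

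In the receptor and STAT6 pathway itself, 2 of 13 genes rose (15.4%) and 1 fell (7.69%), near the 10.6% and 9.36% of all genes. The median log2 change was 0.10, and 0.13 without untreated replicate 1. Both that rose were feedback inhibitors. Socs1, which blocks JAK kinases, had 10 and 12 peaks with summed scores of 139 and 415 in the untreated replicates and 23 peaks each with 2143 and 2151 after IL-4 (log2 change of 2.31 ± 0.12, limma adjusted p = 0.000126). Of its 23 regions tested 16 rose and none fell. Cish had summed scores of 46.3 and 188.5 untreated and 518 and 497.5 after IL-4, with 4 of 5 regions higher. Il13ra1, a receptor chain shared by IL-4 and IL-13, had 194 and 569 untreated and 414 and 373 after IL-4, a log2 change of -0.61 ± 0.13 (adjusted p = 0.0127), with the untreated replicates on either side of the IL-4 values before centring.

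The RNA-seq clusters of the study came from other samples, measure mRNA, and rest on an IL-4 time course that ran past 1 hr. Read against them, p300 at 1 hr rose most often in the induced clusters A to C and fell most often in cluster E. Cluster A, a small group of IL-4-induced genes, had a median log2 change of 0.93. It had 26 of 31 tested genes higher (83.9%, beside 10.6% of all genes) and 1 lower. Its leading genes were Scn3a, with summed scores of 27.7 and 95.8 untreated and 633 and 653 after IL-4, Snn, with 4.2 and 19.01 against 187.5 and 191, and Hebp2, with 13.2 and 39.1 against 244.5 and 308. Msx3, a homeobox gene, had 21.7 and 48.8 against 313 and 324. In all 4, each IL-4 sample was above both untreated samples. On the centred scale this held at all 1666 genes called higher, from which these were picked, so it adds no support. Clusters B and C, also induced, had 97 of 161 (60.2%) and 126 of 283 (44.5%) genes higher and 2 and 1 lower. Cluster D had 48 of 466 higher and 43 lower, near the shares over all genes. Cluster E, the genes repressed by IL-4, had 8 of 597 higher and 174 lower (29.1%, beside 9.36% of all genes), with a median of -0.35. At its 4716 regions 438 rose (9.29%) and 635 fell (13.5%), beside 13.6% and 7.44% of all regions tested. The cluster E losses varied with the samples used. They numbered 259 (with 38 gains) without untreated replicate 1, 368 without untreated replicate 2, and 56 and 59 without IL-4 replicates 1 and 2. With no centring 0 fell and the median was 0.50, and with no variance trend 0 fell.

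Of 25 cytokine, chemokine, and inflammasome genes 2 rose and 4 fell, where 10.6% and 9.36% of all genes did, with a median of -0.07. The balance turned with the sample left out, to 6 higher, 4 lower, and a median of 0.08 without untreated replicate 1, and to 3 higher, 13 lower, and -0.37 without untreated replicate 2. Il12a, a subunit of IL-12, had summed scores of 57.5 and 208.5 untreated and 538 and 564 after IL-4, and Ccl7, a monocyte chemokine, had 40.1 and 123.5 against 225 and 205. The change of Il12a lay in intergenic peaks, and without these it was -1.48. The promoter region of Ccl7 rose, with scores of 13.1 and 57.9 untreated and 175 and 169 after IL-4. Cxcl1 and Cxcl2, chemokines that attract neutrophils, fell by 0.88 and 0.83 on the log2 scale. Ptgs2, which makes prostaglandins, and Il12b, the other subunit of IL-12, fell by 0.60 and 0.58. The raw sums of these 4 genes in the IL-4 samples lay between those of the untreated replicates, so the falls rest on the centring. Without untreated replicate 1, a fit with 1 untreated sample, the log2 changes of Cxcl1, Cxcl2, Ptgs2, and Il12b were -0.84, -0.76, -0.52, and -0.53.

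Of 22 pattern recognition and Fc receptors, 3 rose (13.6%) and 7 fell (31.8%), beside 10.6% and 9.36% of all genes, with a median of -0.27. This became 5 higher, 7 lower, and a median of -0.08 without untreated replicate 1. The losses numbered 13 without untreated replicate 2 and 2 on leaving out either IL-4 replicate. Fpr2, a receptor for formyl peptides, had summed scores of 141 and 409 untreated and 214.5 and 218 after IL-4, with 3 of 5 regions lower. Its neighbour Fpr1 had 105 and 314 against 222 and 209 and fell by 0.61, with none of its 4 regions called. Tlr7, a sensor of single-stranded RNA, fell by 0.54 and Tlr8, beside it on the X chromosome, rose by 0.78 on the log2 scale. Fcgr2b, the inhibitory Fc receptor, had 259 and 697 untreated and 1228 and 1164 after IL-4, a log2 change of 0.64 ± 0.14 (limma adjusted p = 0.014). With all 4 samples, 5.88% of immediate early, 16.7% of lipid and cholesterol, and 18.8% of acetyltransferase, deacetylase, and corepressor genes fell. The share over all genes was 9.36%. None of these genes rose, beside 10.6% of all genes. Of 17 immediate early genes, 1 fell (Nr4a1, an orphan nuclear receptor, by 0.77) and none rose, whereas 3 rose and 1 fell without untreated replicate 1, 1 rose and 11 fell without untreated replicate 2, and 2 rose and none fell without intergenic peaks. Of 12 lipid and cholesterol genes, Nr1h3 (the oxysterol receptor LXRα) and Plin2 (a lipid droplet protein) fell by 0.84 and 0.55, and none rose, but without intergenic peaks their changes were 0.18 and 1.47. Of the 12, 1 rose and 4 fell without untreated replicate 1, and without untreated replicate 2, 2 rose and 8 fell. Of 16 acetyltransferases, deacetylases, and corepressors, Tbl1xr1, Tbl1x, and Kat2b fell, by 0.46 to 0.53, and none rose. That list had 4 lower without untreated replicate 1, 3 higher and 7 lower without untreated replicate 2, and 0 called on leaving out either IL-4 replicate. Of the genes named here that fell, 15 had a change above 0 with no centring, and none did when untreated replicate 1 was left out as well.

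Genes that define macrophages held p300 in all samples. Of 20 lineage genes 18 were tested, 10 had a promoter peak in all 4 samples, and 1 (Itgax, which encodes CD11c) rose, by 0.55 on the log2 scale, while none fell. The list had 4 higher and 3 lower genes without untreated replicate 1, while without untreated replicate 2, 2 rose and 8 fell, and none was called on leaving out either IL-4 replicate. The 2 that were not tested by name, Spi1 (PU.1) and Adgre1 (F4/80), stand in the annotation under the older names Sfpi1 and Emr1, and neither was called (Sfpi1 66.6 and 203 untreated and 210.1 and 203 after IL-4, Emr1 281 and 551 against 733 and 712). Summed over the list, the scores were 5231 and 13407 untreated and 13469 and 13622 after IL-4. Lists for other cell types had fewer promoter peaks in all 4 samples: 3 of 12 neutrophil genes, 1 of 10 T cell genes, and none of the 8 genes each of B cells, fibroblasts, mast cells and basophils, and erythroid cells. Summed scores, not given here for the erythroid list, were far lower, from 75.3 (mast cells and basophils, untreated replicate 1) to 1137 (neutrophil genes, IL-4 replicate 2) in the neutrophil, T cell, B cell, fibroblast, and mast cell lists, and no peak was listed for defining genes such as Ly6g, Cd3g, Cd79a, Pax5, Col1a2, and Cpa3. The neutrophil list summed to 197.5 and 731 untreated and 1079 and 1137 after IL-4. Some of their genes were called nevertheless. Cxcr2 and Retnlg of the neutrophil list rose by 1.82 and 1.41, Ltf by 0.86, and Camp fell by 2.41, a call lost without untreated replicate 1. Alas2 of the erythroid list rose by 5.28 and Ms4a2 of the mast cell list by 5.24, both without a peak in either untreated sample, so that the floor sets their size. Cd4 and Cd28 of the T cell list fell by 1.03 and 0.52, and Kit of the mast cell list fell by 0.82. No gene of the B cell, fibroblast, or housekeeping lists was called with all 4 samples. The part of other cell types in the results was not tested.

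The 9 genes that the study followed by qPCR were read one by one. In the paper, IL-4 raised the mRNA of Edn1, Hbegf, and Klf4 and lowered that of Abca1, Cd14, Clec4d, Fos, Nlrp3, and Tlr2. The repressed genes were measured there after a longer exposure than 1 hr. Here the value is a summed p300 score at 1 hr, so neither the time nor the measure is the same. Edn1 rose (summed scores of 347 and 925 untreated and 1575 and 1557 after IL-4, limma adjusted p = 0.0182), and 9 of its 21 regions were higher. The region whose sequence is given had no untreated peak and scores of 210.0 and 211 after IL-4. Clec4d and Tlr2, innate receptors, fell by 0.90 ± 0.17 and 0.59 ± 0.17. The promoter region of Clec4d had scores of 7.49 and 10.5 untreated and no peak after IL-4. Those scores are below the medians of the 2 untreated samples (11.04 and 18.91). The size of this loss is set by the value given to samples without a peak, and the region could not be tested without untreated replicate 1. Fos, Nlrp3, Cd14, Klf4, Hbegf, and Abca1 were not called with all 4 samples, with log2 changes of -0.12 ± 0.16, -0.25 ± 0.19, 0.30 ± 0.12, 0.30 ± 0.14, 0.43 ± 0.14, and -0.44 ± 0.14. Klf4, with 61 regions tested around it, had 15 higher and 4 lower. Fos had 3 regions higher, and Nlrp3, Cd14, and Hbegf had 1 each, with none lower. Abca1 had 2 higher and 3 lower, Tlr2 had 1 higher and 2 lower, and Clec4d had 3 lower and none higher. Without untreated replicate 1, a fit with 1 untreated sample, the log2 changes of Klf4, Cd14, and Abca1 were 0.33, 0.37, and -0.32.

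Some genes were surrounded by many changed regions (chosen after their values were seen). Socs1 had 16 higher of 23, Inhba, which encodes a subunit of activin, 12 of 20, and Fyn, a tyrosine kinase, 12 of 30, with none lower. At the other end, Nfkbiz, a regulator of NF-kB targets, had 10 lower and 2 higher of 29, and Sspn had 9 lower and none higher of 26. Maf, a macrophage transcription factor with 58 regions, had 11 in each direction, and its summed score was not called (1425 and 3723 untreated, 3519 and 3551 after IL-4). A sum over a gene can therefore hide opposite changes at its regions.

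Other antibodies of the same experiment, in libraries that did not enter the p300 comparison, differed in the direction of p300. Values are log2 scores (for H3K27Ac, normalised tag signal) centred on each sample's shared peaks, and medians are over regions where that antibody had peaks in 2 or more of its 4 samples. At regions where p300 rose, the median H3K27Ac value was -1.60 in both untreated samples and -0.31 in both IL-4 samples, and 92.2% of 3807 regions were higher. Where p300 fell it was -0.54 and -0.55 untreated and -1.41 and -1.39 after IL-4, and 5.81% of 2408 regions were higher. Over all tested p300 regions 47.4% were higher, with a median change of -0.03. RNAPII-pS5, the form of RNA polymerase II at starts and enhancers, went from -1.85 and -1.86 to -0.78 and -0.84 at the gains and from -1.09 and -1.07 to -1.94 and -1.98 at the losses. For both antibodies the replicates of a group were close and the groups did not overlap, which was also so for H3K27Ac over all tested regions. A region could be measured through the peaks of a single group. Where all 4 samples of the antibody had a peak, the median changes at the gains and losses were 0.64 and -0.64 for H3K27Ac. For RNAPII-pS5 they were 0.42 (1857 regions) and -0.49 (949 regions).

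PU.1, the lineage factor of macrophages, went from -0.56 and -0.59 to 0.30 and 0.33 at the gains and from -0.13 and -0.07 to -0.56 and -0.48 at the losses. Where all 4 PU.1 samples had a peak, the median change was 0.56 at the gains and -0.31 at the losses, beside 0.02 over all tested regions. In shares, 53.3% and 48.9% of the gains had a PU.1 peak in the untreated PU.1 samples and 69.2% and 71.4% in the IL-4 samples. Over all regions tested the shares were 57.1% and 51.4% untreated and 56.8% and 58.6% after IL-4. A PU.1 peak in both IL-4 samples and neither untreated sample was found at 10.8% of the gains, 0.760% of the losses, and 2.95% of all regions. Still, 43.5% of the gains had PU.1 in all 4 samples, and 2096 gains had it in none. At the 2799 gains without an untreated p300 peak, 8.90% had PU.1 in all 4 samples, 17.5% in the IL-4 samples only, and 48.6% in none.

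The deacetylases, which remove the marks that p300 sets, also differed in the direction of p300. The median change at the gains was 0.54 for HDAC1, 0.80 for HDAC2, and 1.54 for HDAC3, and at the losses -0.76, -0.56, and -0.51. For each, the groups did not overlap, which was also so over all tested p300 regions for HDAC1 and HDAC3. Of the measured gains 74.2% to 88.3% were higher. Over all tested regions 44.8% (HDAC1), 49.1% (HDAC2), and 54.1% (HDAC3) were higher, with median changes of -0.10, -0.01, and 0.09. Fewer regions were measured than for PU.1, 3432, 3924, and 2427 of the 9124 gains. The direction was the same where all 4 samples of the antibody had a peak (0.32, 0.38, and 0.47 at the gains, and -0.20, -0.32, and -0.42 at the losses). When p300 was called without untreated replicate 1, the changes of the 6 antibodies at the gains ran from 0.46 to 1.24 and at the losses from -0.90 to -0.39. These values are descriptions with no test. The labels give HDAC3 and H3K27Ac the same antibody catalogue number, and so do the ChIP methods of the paper, whereas its list of reagents gives different ones. Which antibody was used was not tested.

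**Figure D5:**
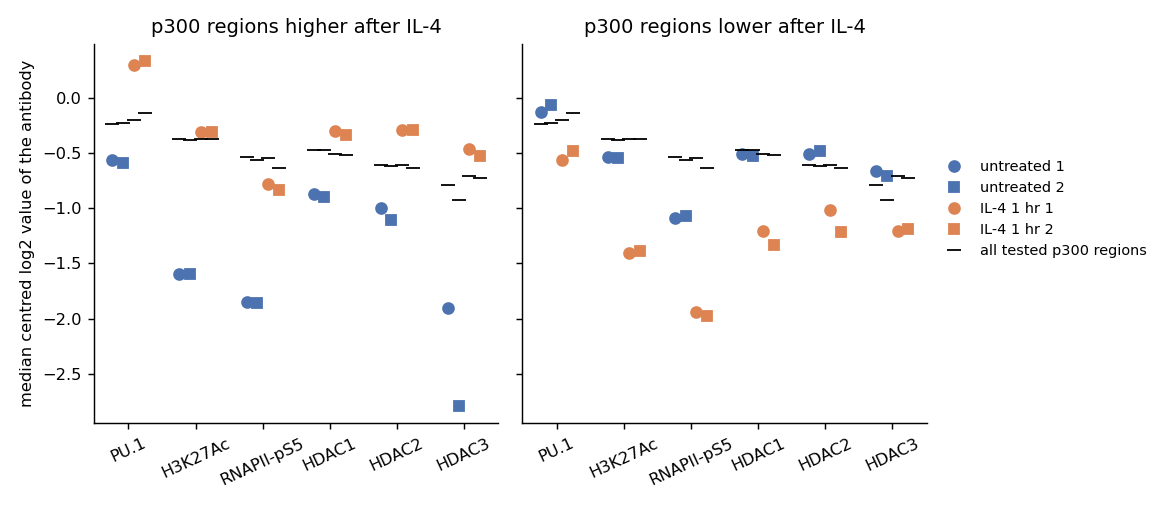
Median centred log2 value of 6 other antibodies in their 4 samples at the p300 regions that rose (left) and fell (right), with black dashes for the medians over all tested p300 regions. IL-4 samples (orange) lie above the untreated samples (blue) for all 6 antibodies on the left and below them on the right.

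Single regions differed in how far the other antibodies went with p300. At the Rgs1 region H3K27Ac was 19.3 and 12.5 untreated and 190.4 and 196 after IL-4, and RNAPII-pS5 had no untreated peak and scores of 23.95 and 23.1 after IL-4. At the Osbpl3 region PU.1 scores were 5.76 and 6.98 untreated and 47.5 and 44.15 after IL-4, and HDAC3 had no untreated peak and scores of 17.4 and 16.9 after IL-4. The Cish region, in contrast, had no PU.1 or H3K27Ac peak in any sample despite p300 scores of 211 and 212. The Pdpn region had no peak of any of the 6 antibodies in any sample. At the Ms4a1 region PU.1 was 38.7 and 22.6 untreated and 15.6 and 14.9 after IL-4, and H3K27Ac had no peak.

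Of all p300 peaks of a sample, the share that overlapped a PU.1 peak in both PU.1 samples of the same treatment was 58.1% and 46.8% before IL-4 and 51.3% and 49.7% after it. The order depended on untreated replicate 1. Against untreated replicate 2 alone the IL-4 mean was 3.70 percentage points higher, and with lists cut to 44787 peaks the IL-4 shares were 64.9% and 64.5% and their mean lay 5.65 points above the untreated mean. For H3K27Ac the shares were 50.5% and 39.9% untreated and 38.6% and 37.7% after IL-4, and for HDAC3, the rarest, 15.9% and 10.7% against 14.4% and 13.9%.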

How the data were processed

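p300 ChIP-seq was compared in 2 untreated and 2 IL-4-treated samples. Per the submitters' processing notes the tools were BWA 0.7.10, SAMtools 0.1.19, HOMER 4.2, and MACS2 2.0.10, and the build was mm10. The authors called p300 peaks with MACS2 at a q-value of at most 0.01 in each sample and deposited annotated peak lists whose score is read here as −log10 of the caller's p- or q-value. The deposited H3K27Ac lists hold the normalised tag signal of HOMER findPeaks (size 1000). Scores rise with depth, which is unknown here, so differences in score are not differences in read number. The authors compared reads with DiffBind, which peak lists do not allow.

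Peaks overlapping by at least 1 bp were joined, the highest score was kept, samples without a peak were given 1.34, and log2 scores were centred on regions shared by all 4 samples. Features with a peak in at least 2 samples were tested in limma 3.58.1 (R 4.3.3) with a mean-variance trend and Benjamini-Hochberg adjustment over all features, after a check on simulated data. Gene values are sums of the scores of their annotated peaks. Motifs were searched in 200 bp about the region centre, in RefSeq's GRCm38 sequence, with Python 3.11.15, pandas 2.3.3, NumPy 2.4.6, SciPy 1.17.1, and pysam 0.24.0, and figures were drawn with matplotlib 3.10.9.

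Regions named are the 12 per direction with the largest change among called regions with a peak in both replicates of the higher group and groups that do not overlap, and 8 per direction among those with a peak in all 4 samples, 1 per gene, leaving out names of the form Gm or Rik. Genes named are up to 6 called genes per list with the smallest p, and the 9 qPCR genes of the study. The members and lists were chosen with earlier results of these data known. The alternatives were other scalings, filters, floors, thresholds, motif windows, a replicate block, and leaving out each sample. RNAPII-pS2 was not used, because the peak names inside its lists contradict the labels. Of the regions and genes that these rules name, 1 region and 1 gene are not reported here.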

Additional observations from a re-analysis of the deposited data

How the results depend on the processing

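The gains and losses depended on the centring, the variance model, and single samples. Regions higher and lower (9124 and 5002) numbered 0 and 0 with no centring, 1266 and 390 with no variance trend, and 4838 and 1498 with a peak in at least 1 sample. There were 4672 higher with a peak in every sample, 2940 lower with peaks cut to 100 bp either side, 8826 lower with quantile normalization, and 8479 lower at an unadjusted p of at most 0.05. Genes higher and lower (1666 and 1471) numbered 205 and 3 with no centring, 0 and 0 with no variance trend (2229 and 1824 at an unadjusted p of at most 0.05 in limma), and 2505 and 2784 unadjusted in the main model, with 2244 lower at an adjusted p of at most 0.1 and 917 lower without intergenic peaks. Leaving out 1 sample gave 3201 to 14334 regions higher, 2956 to 8473 lower, 819 to 3441 genes higher, and 550 to 3791 lower. The lowest counts came without IL-4 replicate 1 and the highest without untreated replicate 2. Leaving out untreated replicate 1 together with the centring, chosen after seeing the data, gave 2706 genes higher. The median of all regions shifted by 0.67 with no centring and by -0.28 with quantile normalization.

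The replicate numbers did not pair the samples (r = 0.013 between same-numbered deviations over 40457 regions), and the fit with a replicate block gave 8834 and 4840 regions and 2073 and 2075 genes. The promoter difference of 0.25 points was 1.03 for scores of at least 5. The PU.1 difference of -1.95 points was 5.65 with lists of equal size and -7.6 to 3.7 on leaving out 1 sample. The STAT share of the gains was 36.6% and 61.4% in windows of 100 and 300 bp, 59.6% with lists of equal size, and 42.2% to 54.6% on leaving out 1 sample, and that of the losses was 1.88%, 8.7%, and 4.49% to 6.67% (windows, then leaving out 1 sample).

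Directions turned at the Rgs1 region (-3.34, cut peaks), at Il12a (-1.48), Nr1h3 (0.18), and Plin2 (1.47) without intergenic peaks, and with no centring at Il13ra1 (0.24), Cxcl2 (0.02), Ptgs2 (0.25), Il12b (0.27), Fpr1 (0.24), Tlr7 (0.31), Nr4a1 (0.09), Nr1h3 (0.02), Plin2 (0.3), Tbl1xr1 (0.32), Tbl1x (0.32), Kat2b (0.39), Cd28 (0.34), Kit (0.04), and Tlr2 (0.26). Why they turned was not tested.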
